A study of Mus musculus with 3 samples.

Results

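Cytosolic ribosomal protein genes encode the protein subunits of the ribosome that translates nuclear messenger RNA. Members were the protein-coding mouse genes whose symbol starts with Rpl or Rps followed by a digit, together with Rplp0, Rplp1, Rplp2 and Rpsa. Symbols holding -ps, the Rps6k kinases and Rps19bp1 were left out. The rule gave 83 members of 36809 genes measured in all libraries, 50 of the large subunit and 33 of the small subunit. Of these, 75 were standard subunit genes and 8 were paralogs, that is further genes for a subunit whose symbol extends that of another member: Rpl10l, Rpl39l, Rpl36al, Rpl22l1, Rpl7l1, Rpl3l, Rps27l and Rps27rt. Rpl24 and Rpl41 were not analysed here.

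The libraries were made from polyadenylated RNA of 3 organs of male mice of the C57BL/6 strain at 11 weeks of age: brain, liver and whole testis. The labels name no treatment, and each organ gave 1 strand-specific library. No difference between organs can therefore be set against the spread between animals, and no p-value is given. Values are FPKM, which count fragments relative to transcript length and library size, so that levels of different genes can be set side by side per length. In bulk tissue, fewer cells of a type and less RNA per cell cannot be told apart. The labelled organs carried their own markers. Summed over the 4 neuron markers, brain had 1603 FPKM, liver 0.348 and testis 0.277. The 4 hepatocyte markers summed to 54936 FPKM in liver, to 647 in brain, of which 641 was Trf, and to 30.2 in testis. The 4 spermatid markers summed to 33768 FPKM in testis, where brain had 27.3 and liver 0.244.

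Each ribosome carries as a rule 1 copy of each subunit protein, and the genes for these proteins are among the most uniformly expressed in the genome. Their messenger RNAs typically start with a C followed by a run of pyrimidines, the terminal oligopyrimidine or TOP motif, through which growth signals control their translation. Most mammalian subunits are made from 1 intron-containing gene, and the genome also holds many retrocopies of these genes. During meiosis in male germ cells the X chromosome is silenced, and testis paralogs of X-linked ribosomal protein genes are known, among them Rpl10l, which male mice need to complete meiosis.

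The largest differences between testis and the other organs were those of the 4 X-linked members and of 2 autosomal testis paralogs, Rpl39l and Rpl10l. Rpl39 encodes a very small protein that lines the exit tunnel of the large subunit, and its coding sequence is shown in full beside that of Rpl39l because the pair has the shortest coding sequence of all members. Capitals mark the bases at which the sequences differ, 23 of 153. The sequences are from GENCODE M21 transcripts on GRCm38 and run 5′ to 3′ from the start codon.
Rpl39: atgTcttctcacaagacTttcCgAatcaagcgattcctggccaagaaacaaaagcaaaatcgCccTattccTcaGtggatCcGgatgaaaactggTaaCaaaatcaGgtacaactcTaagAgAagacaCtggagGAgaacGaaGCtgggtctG
Rpl39l: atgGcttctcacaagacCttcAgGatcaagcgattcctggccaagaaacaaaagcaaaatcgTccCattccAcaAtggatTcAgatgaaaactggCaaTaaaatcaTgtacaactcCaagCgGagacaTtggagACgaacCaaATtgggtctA

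Of the 23 differing bases, 16 were at the last codon position, 5 at the first and 2 at the middle position, and identity was 84.97%. Rpl10 encodes a large-subunit protein that joins late in assembly and reaches towards the catalytic centre. Its coding sequence of 642 bases differed from that of Rpl10l at 98, with 89 at the last codon position, 7 at the first and 2 at the middle, for an identity of 84.7%. The stretch of 75 bases from coding base 307 to 381 is shown because no other stretch of that length, taken codon by codon, held more differences. It has 17, so it is denser in differences than the whole coding sequence. Capitals again mark them.
Rpl10: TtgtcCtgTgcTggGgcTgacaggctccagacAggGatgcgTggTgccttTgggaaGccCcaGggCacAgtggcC
Rpl10l: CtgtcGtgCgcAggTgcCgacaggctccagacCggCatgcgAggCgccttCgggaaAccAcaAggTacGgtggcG

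The density of differences over the whole sequence bears on whether reads of 76 bases can be told apart between a paralog and its parent. Among annotated transcripts, 100% of the 76-base windows of Rpl39l and 99.9% of those of Rpl10l occurred in no other gene. Of the X-linked members, Rpl39 had 92.7% unique windows, Rps4x 47.9%, Rpl36a 15.4% and Rpl10 15.1%. The members as a whole differed widely in this property. The median share of unique windows was 60.7%, the range was 1.48 to 100%, 20 members had 80% or more and 28 had under 50%. These are exact matches, and reads mapped with mismatches would be shared more often. Windows were taken from 1 transcript per gene, with its noncoding parts. A high share can therefore come from noncoding sequence and does not show that the coding part is unique. Rps15a had 95.9% on a transcript of 5179 bases with 390 coding, and the Rpl39 transcript has 612 with 153 coding.

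The members were abundant in every library. In brain 80 of 83 reached 1 FPKM, in liver 80 and in testis 82. The median level was 104 FPKM in brain and 74.5 in liver, against 90.6 in testis, and 42, 33 and 40 members were at 100 FPKM or more. Their summed level was 10974 FPKM in brain and 8694 in liver, with 12741 in testis. That was 3.18% of the protein-coding FPKM of brain, 1.42% of that of liver and 2.24% of that of testis. The large subunit held 5842, 4625 and 7196 FPKM and the small subunit 5132, 4069 and 5545. The share depended on the other abundant genes of an organ: without the 100 most abundant protein-coding genes that were not members, it was 4.89% in brain, 4.83% in liver, and 3.22% for the testis library, so that brain and liver came close together and testis was lowest. The deposited intervals were narrow, with a median half-width, relative to the value, of 3.94% (brain), 2.72% (liver) and 3.93% (testis) among members at 1 FPKM or more. The widest reached 45.5, 49.9 and 30.1%.

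**Figure D1:**
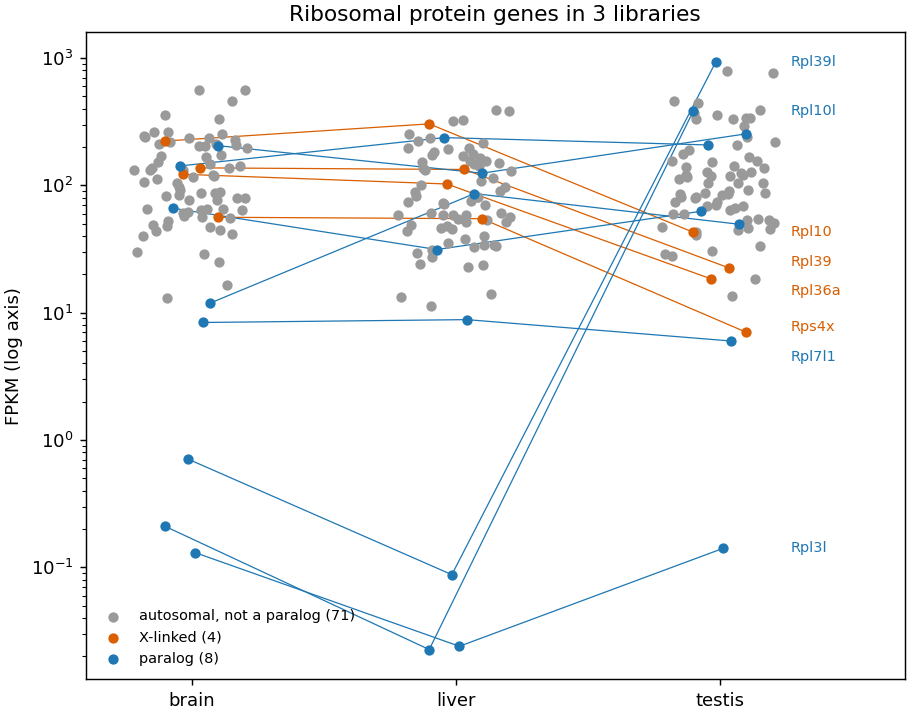
FPKM of the 83 members in the brain, liver and testis libraries on a log axis, 1 point per member, with lines joining the X-linked members (orange) and the paralogs (blue). The 4 X-linked members sit between 56.1 and 223 FPKM in brain and between 7.02 and 42.8 in testis, while Rpl10l and Rpl39l go from under 1 FPKM in brain and liver to 383 and 935 in testis.

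Most autosomal standard members were within 2-fold between organs in the deposited values. Differences are given on the log2(FPKM + 1) scale, on which 1 is 2-fold and low genes are understated. Among the 71 autosomal standard members, 61 (85.9%) were within 2-fold between testis and brain, against 39.5% of the 14973 protein-coding genes at 1 FPKM or more in any library. Between testis and liver 55 (77.5%) were within 2-fold, against 39.7%, and between brain and liver 64 (90.1%), against 48.5%. The protein-coding genes needed 1 FPKM in any 1 library, and their median in liver was 1.82 FPKM. The 71 members were at 13.0 FPKM or more in brain, 11.2 in liver and 13.5 in testis. No set of genes matched for level was compared. The interquartile range of their difference was 0.91 between testis and brain, 1.03 between testis and liver and 0.40 between brain and liver, where the protein-coding genes had 2.69, 2.49 and 1.62. These pairs share libraries, so the 3 figures are not separate evidence.

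**Figure D2:**
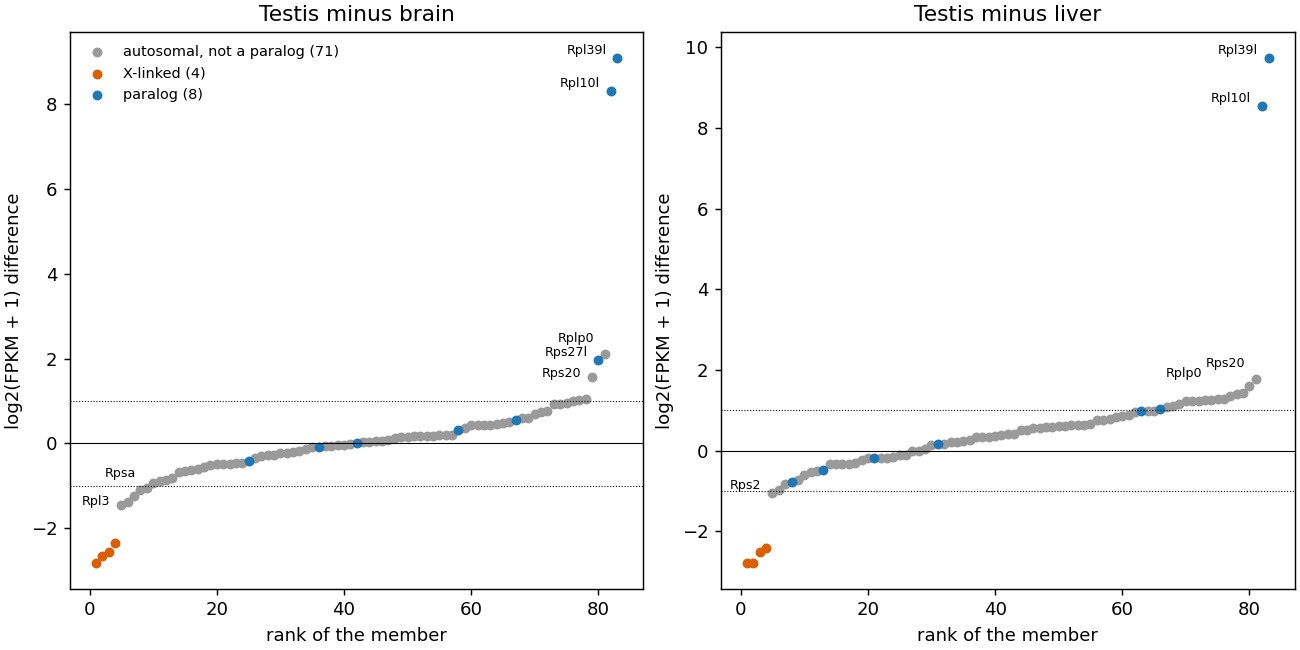
The log2(FPKM + 1) difference of each member, ordered by size, for testis minus brain (left) and testis minus liver (right), which share the testis library. Dotted lines mark 2-fold; the 4 X-linked members (orange) are the lowest in both panels, from -2.83 to -2.35 and from -2.80 to -2.41, and Rpl10l and Rpl39l are the highest, at 8.31 and 9.10 and at 8.55 and 9.75.

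A member was called higher or lower where it differed by at least 2-fold and the deposited intervals did not overlap. In testis against brain 8 members were called higher and 9 lower, 9.64% and 10.8% of the members. Of all 36809 genes 17.6% were called higher and 13.9% lower, and of the 14973 protein-coding genes 30.1% and 28.2%. The median difference of the members was 0.01, beside -0.01 for the protein-coding genes. It depended on the scaling: scaled to the protein-coding sum of each library, which moved the median of the protein-coding genes by -0.54, it was -0.69, with 4 members higher and 26 lower. Under that scaling the protein-coding genes had a median of -0.55, with 23.9% called higher and 39.7% called lower.

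All 4 X-linked members were lower in testis. Rpl10 (chrX:71516151-71518474, mm9) was at 223 FPKM in brain and 304 in liver, against 42.8 in testis. Its deposited interval ran from 214 to 232 in brain, from 296 to 311 in liver and from 38.2 to 47.3 in testis. The testis interval lay far below the other two. Rpl39 (chrX:34622515-34625397) had 137 FPKM in brain and 133 in liver, with 22.5 in testis. Rpl36a (chrX:131120193-131122595), a large-subunit protein of the exit site for transfer RNA, had 122, 102 and 18.4. Rps4x (chrX:99380280-99384733), a small-subunit protein, had 56.1, 54.7 and 7.02. In all 4 genes brain and liver were within 2-fold of each other and testis stood below both. Most windows of Rpl10, Rpl36a and Rps4x also occurred in other genes. The values and intervals of these genes thus cannot be tied to the X-linked locus alone. The windows of Rpl39 were mostly unique, but they include noncoding sequence, and its coding sequence has near-identical copies elsewhere in the genome.

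Against brain the X-linked members were lower in testis by 2.35 (Rpl10), 2.55 (Rpl39), 2.66 (Rpl36a) and 2.83 (Rps4x) on the log2 scale, which is 5.11-fold to 7.12-fold. Against liver they differed by -2.80, -2.51, -2.41 and -2.80 in the same order. Their median was -2.61 against brain and -2.65 against liver, and the lowest autosomal standard member was at -1.45 and -1.05. They were the 4 members called lower at 4-fold in each comparison, where 14.0% and 8.01% of the protein-coding genes were. Higher at 4-fold in testis were 3 members against brain and 2 against liver, where 19.1% and 27.1% of the protein-coding genes were. All 4 were also called lower at 2-fold under median-ratio scaling, under the protein-coding sum, with a pseudocount of 0.1 FPKM and with copies summed. Among the 615 X-linked protein-coding genes at 1 FPKM or more in any library, 41.5% were called lower in testis than in brain at 2-fold and 36.3% higher, with a median of -0.61. Against liver 16.1% were lower and 45.2% higher, with a median of 0.68. The X-linked members were thus lower than the median gene of their chromosome in both comparisons.

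The testis paralogs had the reverse pattern. Rpl10l (chr12:67384368-67385388) was at 0.210 FPKM in brain and 0.0226 in liver, against 383 in testis, with a testis interval of 378 to 388. Rpl39l (chr16:10170319-10175004) was at 0.710, 0.0877 and 935 FPKM, with a testis interval of 922 to 948. Rpl39l was the most abundant of all 83 members in testis, where the standard members reached at most 784. On the log2(FPKM + 1) scale Rpl10l was higher in testis by 8.31 against brain and 8.55 against liver, and Rpl39l by 9.10 and 9.75. Both were under 1 FPKM in brain and liver, so the pseudocount sets the size of these differences.

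The brain traces of both genes stood beside traces of germ cell transcripts. Per 1000 FPKM in testis, brain had 0.548 FPKM of Rpl10l and 0.759 of Rpl39l. For the 8 spermatid and meiotic germ cell markers it had 0.653 to 4.39, with a median of 0.851. None of the 8 was at 0 in brain. Per 1000000 FPKM in testis, liver had 59.1 of Rpl10l and 93.8 of Rpl39l, above the 0 to 33.3 of the markers, 3 of which were listed at 0. The part of germ cell RNA in the brain and liver values was not tested.

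Of the summed level of a parent and its paralog, Rpl10l made up 0.0943% in brain and 0.00746% in liver, but 89.96% in testis. Rpl39l made up 0.515, 0.0658 and 97.6%. The sum of Rpl10 and Rpl10l was 223 FPKM in brain and 304 in liver, with 426 in testis. The sum of Rpl39 and Rpl39l was 138, 133 and 958. In testis both sums were thus carried by the autosomal paralog, and both were higher than in the other organs.

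These shares depended on near-identical copies of the parents. Copies were other annotated genes matching a member's coding sequence at 90% identity or more over 80% or more of its length. Each was assigned to the member it matched best, and equal matches went to the first gene identifier. Genes that are themselves members were not counted as copies. Rpl39-ps, a processed pseudogene on chromosome 15, was listed at 5103 FPKM in brain and 5047 in liver, against 871 in testis, far above Rpl39 itself. Another pair of Rpl39 copies, Gm15148 and Gm12013, were listed at 2788 and 1420 FPKM in brain and 490 and 260 in testis. With copies summed to their parents, Rpl39l made up 36.04% in testis and Rpl10l 67.7%. The summed level of the Rpl39 pair was then 9460 FPKM in brain and 9515 in liver, with 2594 in testis, and that of the Rpl10 pair 943, 1325 and 572. The order of the organs turned for both pairs. FPKM is per length, and the loci summed can differ in length. The Rpl39 transcript has 612 bases and that of Rpl39l 805, while copies were matched on a coding sequence of 153. The part of length in these sums and shares was not tested. Rpl39l had no copy and Rpl10l had 1, and how the authors' software placed reads that match several loci is not given in the sources used here.

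**Figure D3:**
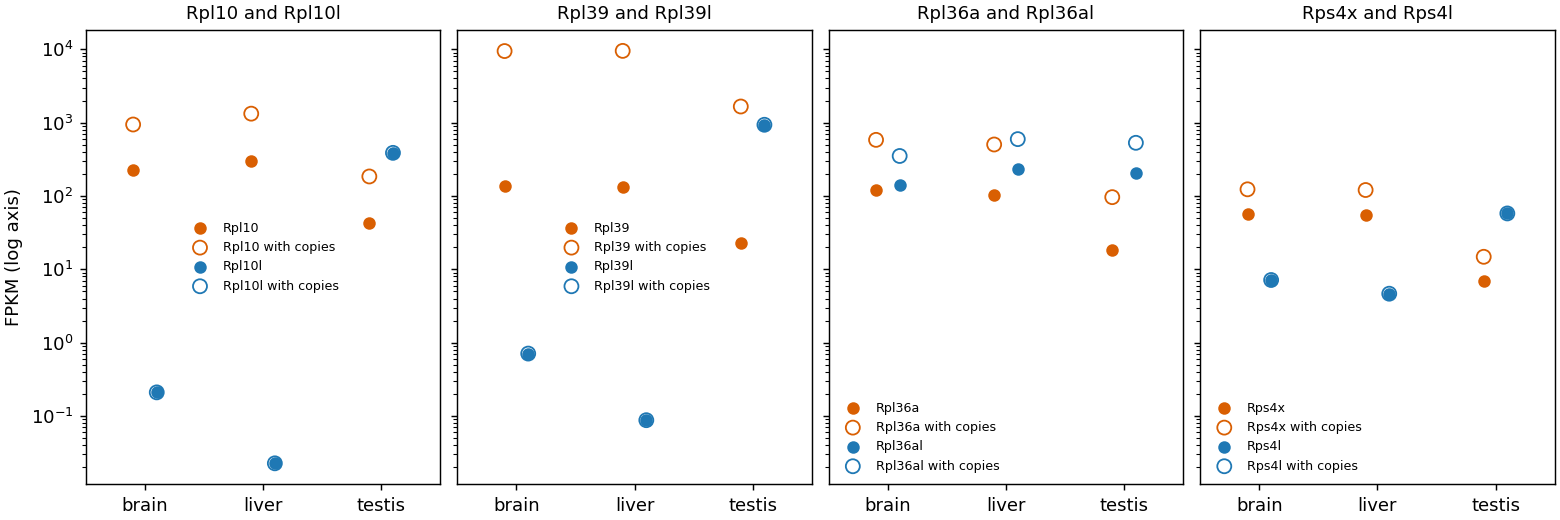
FPKM on a log axis of 4 X-linked members (orange) and their autosomal relatives (blue) in each library, alone (filled points) and with near-identical copies summed (open points). In testis Rpl10l and Rpl39l exceed the parent alone, at 383 against 42.8 and 935 against 22.5, while Rpl39 with its copies is above Rpl39l.

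The copies of the X-linked members followed their parents across organs. Among them 11 were at 10 FPKM or more in any library, 10 of them autosomal, and 10 of the 11 were lower in testis than in brain by over 2-fold. The exception was Gm11334, a Rpl39 copy on chromosome 13 with 11.8 FPKM in testis and listed at 0 in brain and liver. Rpl10-ps1 on chromosome 2 and Rpl10-ps3 on chromosome 9, each with a coding match of 100% to Rpl10, had 254 and 252 FPKM in brain, 361 and 360 in liver and 49.4 and 49.9 in testis. Reads of Rpl10 and of these copies cannot be told apart in the values used.

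Rpl36a and Rps4x also had autosomal relatives, with smaller differences. Rpl36al, on chromosome 12, was at 142 FPKM in brain and 237 in liver, against 207 in testis, and its difference from the other organs stayed within 2-fold. It made up 53.8% of the summed level of Rpl36a and Rpl36al in brain, 69.8% in liver and 91.8% in testis. With copies the shares were 37.6, 54.2 and 84.6%. Rps4l (chr6:148303178-148304120) is annotated as a transcribed processed pseudogene and is no member. It was at 7.15 FPKM in brain and 4.65 in liver, with 57.8 in testis, and it made up 11.3, 7.84 and 89.2% of its sum with Rps4x. That sum, 63.3 FPKM in brain and 59.3 in liver, against 64.8 in testis, was nearly level across organs, but with copies it was 130.4, 125 and 72.6. Per 1000 FPKM in testis brain had 124 of Rps4l, far above the germ cell markers.

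The other paralogs had their own patterns. Rps27l, a small-subunit paralog known as a target of p53, was at 11.9 FPKM in brain and 86.1 in liver, with 49.5 in testis. Brain was low and liver high, with intervals apart, and the difference was 1.97 for testis minus brain, -0.79 with liver in the place of brain, and -2.75 for brain minus liver. It was the 1 member called lower in brain than in liver, also at 4-fold, where 6.12% of the protein-coding genes were lower and, against 0 members, 18.4% higher. Rpl22l1, a paralog of the RNA-binding subunit Rpl22, was at 66.1, 31.3 and 62.5 FPKM, beside 132, 192 and 152 for Rpl22. Its brain minus liver difference of 1.05 was under 2-fold with copies summed, at 0.96. Rpl3l, known from striated muscle, was at 0.131, 0.0240 and 0.141 FPKM and was the member not detected at 1 FPKM in any library. Rpl7l1, a relative of Rpl7, was low throughout at 8.37, 8.82 and 5.99 FPKM, beside 153, 151 and 140 for Rpl7. Rps27rt, at 205, 124 and 254 FPKM, has a coding sequence identical to that of Rps27, which was at 43.8, 24.0 and 59.2. Only 1.48% of the windows of Rps27 were unique, so the split between this pair cannot be read from these values.

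The acidic stalk of the large subunit, which recruits translation factors, is built from Rplp0, Rplp1 and Rplp2. Its base Rplp0 was at 77.2 FPKM in brain and 109 in liver, against 335 in testis. Testis was highest with intervals apart, by 2.10 against brain and 1.61 against liver, and no other standard member was as far above brain in testis. Under median-ratio scaling the liver difference was 0.90, which ends that call. Rplp1 was at 209.6, 136 and 115 FPKM and Rplp2 at 55.3, 34.2 and 54.6, and neither was called against testis. The 3 stalk genes thus did not share a pattern.

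Besides the X-linked members, 5 standard members were called lower in testis than in brain. Rpl3, a core protein near the catalytic centre, was at 132 FPKM in brain and 58.8 in liver, with 47.4 in testis, a difference of -1.45 for testis minus brain. Rpsa, a small-subunit protein also known as a laminin receptor, was at 29.0, 23.0 and 13.5 FPKM, with a difference of -1.05. Rps3a1, Rps3 and Rps21 of the small subunit differed by -1.39, -1.25 and -1.11. All 5 stood in the order brain, liver, testis in the deposited values.

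The remaining standard members called higher in testis than in brain, besides Rplp0, were 4. Rps20, of the small subunit head, was at 13.0 FPKM in brain and 11.2 in liver, against 40.7 in testis, with a difference of 1.57 against brain and 1.77 against liver. Under scaling to the protein-coding sum the brain difference was 0.89. Rpl18 was at 25.2, 23.5 and 53.2 FPKM with a difference of 1.05 against brain, which was 0.90 with copies summed. The liver estimate of Rpl18 was marked as failed, with an interval from 0 to 35.2. Rps28 and Rpl32 differed by 1.02 and 1.003. All of these but Rplp0 lie near the 2-fold limit or move under it with the processing.

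In testis against liver 18 members were called higher and 5 lower, 21.7% and 6.02% of the members. Of all genes 24.5% were higher and 6.97% lower, and of the protein-coding genes 43.8% and 14.3%. The median difference was 0.42, beside 0.77 for the protein-coding genes. Median-ratio scaling moved the median of the protein-coding genes by -0.43, and with it the members' median was -0.28, with 3 higher and 18 lower, where 35.7% and 20.6% of the protein-coding genes were. The 18 lower members, 21.7% of the members, were thus near the background. The sign of the members' median thus changed with the scaling. It was below the median of the protein-coding genes in each case, at 0.42 against 0.77 as deposited, -0.28 against 0.34 under the median ratio and 0.52 against 0.78 under the protein-coding sum.

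Of the 18 members higher in testis than in liver, 15 were standard members, 7 of the large and 8 of the small subunit. The largest differences after the testis paralogs were those of Rps20, Rplp0 and Rps7. Rps7, a small-subunit protein, was at 48.4 FPKM in brain and 29.7 in liver, with 81.3 in testis, a difference of 1.42 for testis minus liver. The 5 lower members were the X-linked genes and Rps2. Rps2, of the small subunit, was at 87.5, 143 and 68.3 FPKM, a difference of -1.05 that was -0.94 under the protein-coding sum. As deposited, liver was its highest organ, whereas under the protein-coding sum brain stood above liver, at 125 against 115 FPKM.

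In brain against liver 8 members were called higher and 1 lower, 9.64% and 1.20% of the members. Of all genes 19.3% were higher and 4.85% lower, and of the protein-coding genes 39.4% and 10.3%. The median difference was 0.38, beside 0.69 for the protein-coding genes, and 72 of 83 members had a positive sign. Under median-ratio scaling the median was -0.34, with 0 higher and 7 lower, where 27.7% and 15.2% of the protein-coding genes were. Under the protein-coding sum it was 1.19, with 58 higher and 1 lower, where 56.9% and 7.58% of the protein-coding genes were. Rps29, a small zinc-binding protein of the small subunit, was at 174 FPKM in brain and 70.1 in liver, against 166 in testis, with a brain minus liver difference of 1.30. Rps15 had 209, 89.7 and 136 FPKM and a difference of 1.21. Rpl38, known for its part in the translation of Hox messenger RNAs, had 104, 46.1 and 86.3 FPKM and a difference of 1.16, or 0.98 with copies. Rpl3 and Rpl9 differed by 1.15 and 1.14. In all 5 liver was below brain in the deposited values. Testis was also above liver, with intervals apart, in Rps29, Rps15, Rpl38 and Rpl9, the last at 46.0 against 39.7 FPKM.

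The most abundant members over the 3 libraries were Rps24, Rpl26, Rps6, Rps23 and Rps15a. Rps24 was at 561 FPKM in brain and 327 in liver, with 784 in testis, but with a brain interval of 306 to 816 and a testis interval of 548 to 1020. Its testis minus liver difference of 1.26 was 0.93 with copies. Rpl26 was at 561, 383 and 758 FPKM. Rps6, the subunit phosphorylated by S6 kinase, was at 456, 393 and 389, so that it was nearly level. Rps23 was at 358, 236 and 369 FPKM and Rps15a at 240, 254 and 459. Among the standard members the lowest were Rps20, given above, and Rpl12, at 16.4, 14.0 and 18.2 FPKM. Rps27a, which is made as a fusion with ubiquitin, was at 263, 224 and 177. Rpl15 was at 76.4, 58.4 and 73.8 FPKM, with a testis estimate marked as having low data. Standard members as a whole ranged from 13.0 to 561 FPKM in brain, from 11.2 to 393 in liver and from 7.02 to 784 in testis.

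The order of the standard members by level was much alike in the libraries. Across the 75 genes Spearman's rho of level was 0.94 between brain and liver, 0.75 between testis and brain and 0.73 between testis and liver, as a description, since the genes share libraries and reads with their copies. Between level and coding length rho was -0.02 (brain), 0.06 (liver) and -0.16 (testis), and with copies summed it was -0.28, -0.22 and -0.36. For the differences rho with coding length was -0.32 for testis minus brain and -0.43 for testis minus liver, and with copies summed -0.34 and -0.47. Coding length ran from 153 to 1257 bases with a median of 453. Transcript length enters FPKM, and its part in these values was not tested.

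Near-identical copies were a general property of the members. The annotation held 558 copies of 75 members, with a median of 5 and up to 44, for Rpl21, and 8 members had none. Rps27 is among these only because equal matches went to Rps27rt, which has the same coding sequence and was given 4. Some copies by this definition are protein-coding genes with another name, such as Wdr89, the 1 copy of Rplp2, and BC004004 for Rpl21. Their whole FPKM entered the sums with copies. Of the copies 404 were at 1 FPKM or more in any library and 318 at 10 or more. The copies together were listed at 65646 FPKM in brain and 49820 in liver, against 58052 in testis, several times the members' own sum. Members and copies together held 18.8% (brain), 8.85% (liver) and 11.3% (testis) of the sum of protein-coding FPKM and the FPKM of noncoding copies, most copies being annotated as noncoding. Levels of single members depend on how reads were divided among these loci, which was not tested. Differences between organs were alike in copies and members. Copies share reads with their members, so this likeness cannot show that a member's own difference is unaffected. For the 318 copies at 10 FPKM or more, the difference of the copy minus that of its member had a median of -0.01 for testis minus brain, and 313 (98.4%) were within 0.5 on the log2 scale. Against liver 307 (96.5%) were for testis and 315 (99.1%) for brain.

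**Figure D4:**
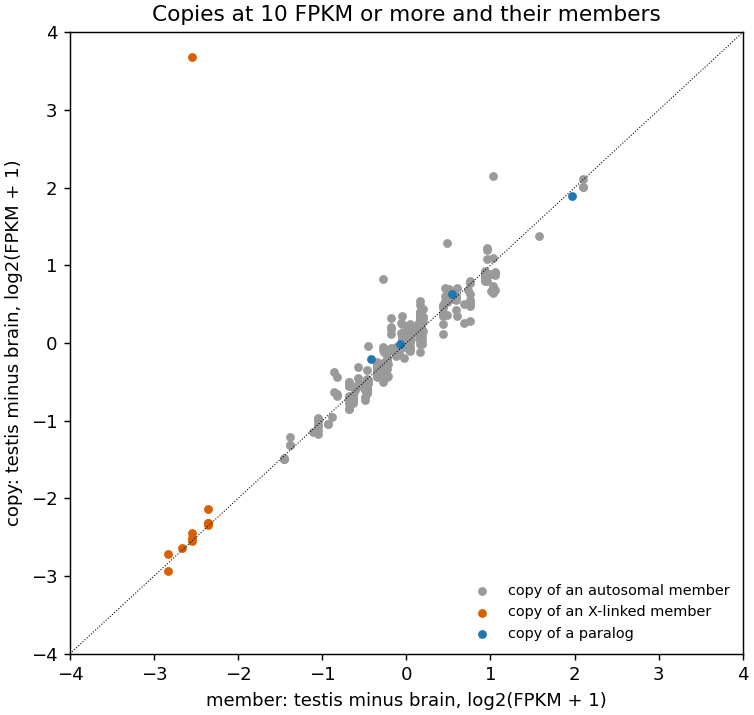
The testis minus brain log2(FPKM + 1) difference of 318 copies at 10 FPKM or more in any library against that of the member they match, 1 point per copy. The points follow the dotted line of equality, with 313 within 0.5 of it, and the exception among copies of X-linked members is Gm11334 at 3.68.

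Pyrimidine runs near the start were more frequent among the members than among all genes. Of the 83 members 63 were in the RefSeq promoter table, which gives 250 bases before to 50 bases after each start on GRCm38.p6. A run of 8 or more C or T that reached within 30 bases of the start was found in 45 of 63 members (71.4%) and in 8240 of 27025 genes (30.5%). Windows of 30 bases around the start, 15 on each side, are printed for 4 members whose run lies at the start (for Rps24, at 1 of its starts) and for Rpl10l, with the run in capitals. They show a run at the start in 3 standard members and 1 paralog, and a paralog without it. They were picked for this position, and many of the counted runs do not lie at the start.
Rps6, chr4:86857353-86857382, minus strand: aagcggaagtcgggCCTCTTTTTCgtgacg
Rps24, chr14:24490663-24490692, plus strand: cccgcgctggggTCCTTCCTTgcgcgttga
Rplp2, chr7:141447636-141447665, plus strand: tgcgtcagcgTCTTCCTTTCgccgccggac
Rpl22l1, chr3:28805493-28805522, plus strand: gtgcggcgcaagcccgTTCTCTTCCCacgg
Rpl10l, chr12:66284387-66284416, minus strand: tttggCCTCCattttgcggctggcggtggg

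The runs of Rps6, Rplp2 and Rpl22l1 were 10 bases long and that of Rps24 was 9. The longest near the start of Rpl10l was 5. Of the 55 standard members with a window, 41 (74.5%) had a run of 8 or more, and of the 8 paralogs 4 did: Rpl39l, Rpl36al, Rpl22l1 and Rps27l. Among the X-linked members Rpl36a and Rpl39 had such a run and Rpl10 and Rps4x did not in these windows. The counted runs of Rpl39l, Rps27l and Rpl36al began at -26, -22 and 28 bases from the start. Those of Rpl36a and Rpl39 began at 27 and -21. None of these 5 lies at the start, and whether a counted run is a TOP motif was not tested. The letters CGGAAG on either strand, the core recognised by ETS factors, were found in 41 members (65.1%) and in 18.8% of all genes. Rpl39l was among the 3 paralogs that held them. The letters TATAAA on either strand were found in 7 members (11.1%) and in 15.7% of all genes. The pyrimidine run and CGGAAG, whose reverse strand holds a short run of its own, can overlap, and a match is a description of the letters only.

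Fau and Rack1 belong to the small subunit although the naming rule does not take them. Fau, a fusion of a ubiquitin-like protein with a small-subunit protein, was at 46.0 FPKM in brain and 28.7 in liver, with 57.5 in testis. Rack1, a scaffold on the small subunit, was at 133, 170 and 98.9 FPKM. Neither was called between testis and brain.

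Other lists of the translation machinery had higher medians for testis minus brain than the members, except the mitochondrial ribosomal proteins. The list counts stand beside the 30.1% of protein-coding genes called higher and the 28.2% called lower in testis than in brain, and nothing particular to a list is read from them. Of 41 initiation factors 15 were called higher and 2 lower in testis than in brain, and their median was 0.71. Eif4e2, a cap-binding protein that represses translation, was at 12.8 FPKM in brain and 23.9 in liver, against 103 in testis. The X-linked Eif2s3x, the GTP-binding subunit of the factor that delivers the initiator transfer RNA, was at 17.0, 12.5 and 1.64. Of 12 elongation and release factors 3 were higher and 3 lower, the median being 0.47. Eef1a2, the elongation factor of neurons and muscle, was at 286 FPKM in brain and 0.00698 in liver, with 0.0218 in testis. Of 16 other messenger RNAs known to start with a TOP motif, some of which are also factors of the lists above, 4 were higher and 1 lower, the median being 0.65. Pabpc1, the poly(A)-binding protein, was at 57.1, 90.9 and 996 FPKM, the largest difference of that list.

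Of 52 ribosome biogenesis factors 15 were higher and 6 lower in testis than in brain, with a median of 0.51. Wdr12, which acts in large-subunit maturation, was at 12.1 FPKM in brain and 5.68 in liver, against 79.7 in testis. Tsr2, the X-linked chaperone of Rps26, was at 11.3, 1.55 and 1.20. Of 77 mitochondrial ribosomal proteins 10 were higher and 13 lower, the median being -0.13. Mrpl54 was at 26.7, 21.7 and 165 FPKM and Mrpl50 at 16.5, 15.1 and 3.10. Against liver the lists had 23 higher and 1 lower (initiation, median 1.26), 5 and 0 (elongation and release, 0.95), 8 and 0 (TOP, 1.29), 26 and 1 (biogenesis, 1.02) and 22 and 5 (mitochondrial, 0.46), beside 43.8% and 14.3% of the protein-coding genes. Of these 20 list counts 10 moved by over 1.5 times under the median ratio, and 10 under the protein-coding sum.

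**Figure D5:**
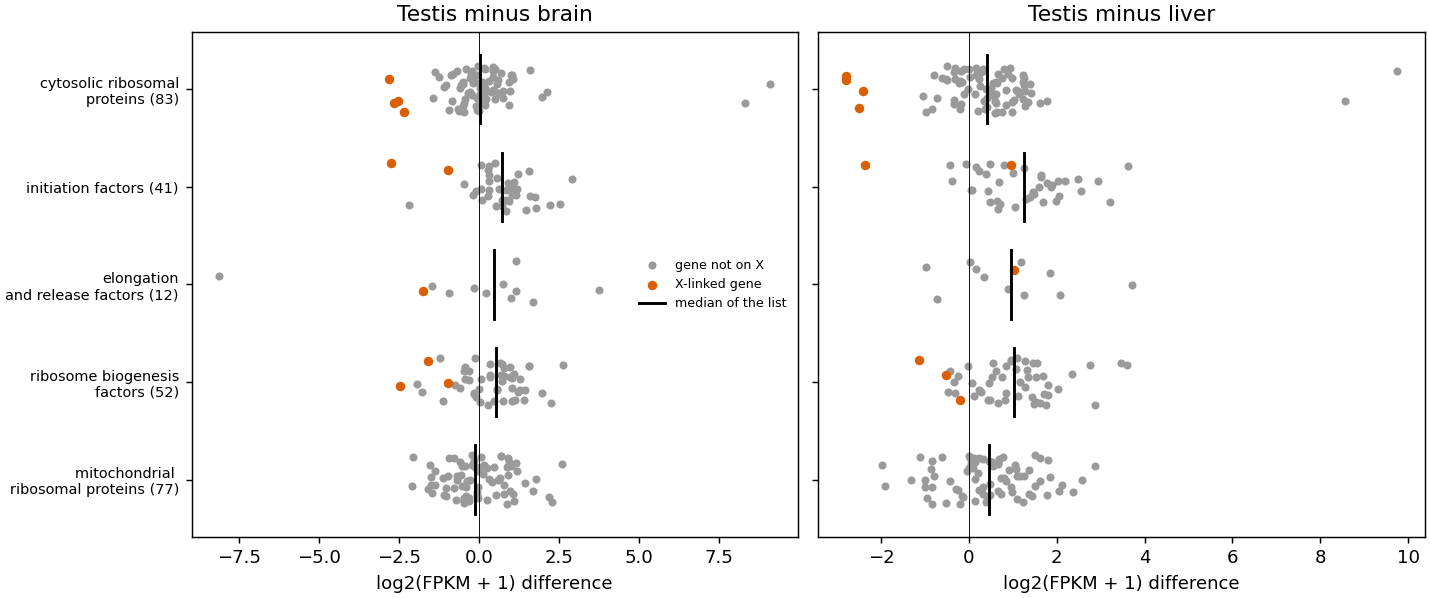
The log2(FPKM + 1) difference of the 83 members and of the genes of 4 other lists, testis minus brain (left) and testis minus liver (right), 1 point per gene, with X-linked genes in orange and a black bar at each list's median. The members' medians of 0.01 and 0.42 lie below those of the initiation factors, 0.71 and 1.26, and the X-linked genes of most lists lie at the lower side for testis minus brain.

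The X-linked genes of the other lists were compared with the rest of those lists. They were 6: Dkc1, Eif1ax, Eif2s3x, Gspt2, Tsr2 and Utp14a. Against brain 4 were called lower in testis and 0 higher, with a median of -1.69, where the other 185 genes had 21 lower and 45 higher and a median of 0.32. Against liver 2 were lower and 1 higher and the median was -0.37, beside 5 lower and 79 higher and 0.80. The 4 X-linked ribosomal protein genes, with medians of -2.61 and -2.65, lay below both. Of the 615 X-linked protein-coding genes given above, 41.5% were lower and 36.3% higher against brain, with a median of -0.61. Against liver 16.1% were lower and 45.2% higher, with a median of 0.68. With 6 genes, nothing particular to the lists is read from the counts.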

How the data were processed

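Per the file headers, the deposited tables list for each gene its FPKM, bounds on either side and a status of the estimate. Cufflinks 2.0.0, TopHat 1.4.0 and Bowtie 0.12.5 are named, with the mm9 build, in the submitters' processing notes. The level of the bounds, the annotation and the placing of reads with several matches were not given in the sources used here. Libraries were strand-specific and read for 76 cycles in 3 lanes each, per the labels' protocols. The tables hold no read counts, so precision was read from the deposited bounds, which cover estimation within a library only.

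The 36809 identifiers present in all tables were used. Values of 12 identifiers listed at several loci were summed, and failed estimates (305 in brain, 327 in liver, 390 in testis) were kept. GENCODE M21 gave symbols for 31837 identifiers, gene classes and transcript sequences by identifier only. Gene coordinates were taken from the mm9 loci of the files, made 1-based, and promoter windows are RefSeq's on GRCm38.p6. Differences are log2(FPKM + 1), and a call needed 2-fold and intervals apart. Calls were tested on simulated data. The simulation held no spread between animals and no shared reads, so it bears on the calling step only. Copies were found with BLAST 2.17.0, and other steps used pandas 2.3.3 and scipy 1.17.1 in Python 3.11.15.

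The members and lists were chosen with earlier results of these data known. Named members were the paralogs and their parents, the stalk genes, Rpsa, Rps27a, the X-linked members, those with an estimate not marked OK, the 5 highest and 5 lowest, and the 5 largest differences in each direction per pair of organs. Of each other list the 3 largest called differences in each direction could be named, and 1 or 2 were printed. A gene of the lists is not reported here. The subunits called beyond that rule, the copies of X-linked members, Rps4l and the X-linked genes of other lists were chosen after their values were seen, as were the alternatives on copies, unique windows and the scaling of lists. A feature based on protein sequences was replaced by coding length. Alternatives fixed earlier were a pseudocount of 0.1 FPKM, 2 scalings, a 4-fold call, size without intervals, OK estimates, a filter at 1 FPKM and leaving out paralogs.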

Additional observations from a re-analysis of the deposited data

How the results depend on the processing

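No paired analysis was possible because each organ had 1 library and the labels carry no replicate numbers, and for the same reason no replicate could be left out. Under scaling to the protein-coding sum, members called higher and lower numbered 4 and 26 for testis minus brain and members higher in brain than liver 58, with medians of -0.69 for testis minus brain (reversed), 0.52 for testis minus liver, 1.19 for brain minus liver. Under median-ratio scaling 3 members were higher and 18 lower in testis than in liver, and 0 and 7 in brain than in liver, with medians of -0.28 and -0.34 (both reversed). At 4-fold, 3 were higher and 4 lower for testis minus brain, 2 higher in testis than liver, 0 higher in brain than liver. Without paralogs, 5 were higher for testis minus brain with a median of -0.030 (reversed), and 0 were lower for brain minus liver. Among the 20 members with 80% or more unique windows, 3 were lower for testis minus brain, 7 higher and 1 lower in testis than liver, 1 higher in brain than liver, with medians of 0.28, 0.61 and 0.25; the smaller counts come with fewer genes. The share of protein-coding FPKM in brain, liver and testis was 3.90, 1.58 and 2.31% without mitochondrially encoded genes, 4.89, 4.83 and 3.22% without the 100 most abundant other genes, and 3.05, 1.34 and 1.91% without paralogs. With copies summed, and noncoding copies added to the protein-coding sum, it was 18.8, 8.85 and 11.3%. With estimates marked OK only it was 1.44% in liver and 2.30% in testis. With copies the testis share of Rpl10l was 67.7% and that of Rpl39l 36.04%. Apart from these constructions the cause was not tested. Of 108 differences of named members, 106 kept direction and side of the 2-fold limit with a pseudocount of 0.1 FPKM, 97 with copies summed, 67 under the protein-coding sum and 60 under the median ratio. Depth limits Rpl10l, Rpl39l and Rpl3l in brain and liver, which were under 1 FPKM there.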
